A study of Drosophila melanogaster with 2 samples.

Results

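Single non-divergent promoters accounted for 519 of the 1472 Ravus-eGFP peaks placed on the chromosome arms, or 35.3%. The members were chosen by position alone. The highest point of each peak, its summit, had to fall 500 bp or less from a transcription start site in the annotation. It could not lie between neighbouring start sites of different genes that point away from each other within 1000 bp, which set aside 248 peaks at divergent promoters. Of the 519 members, 410 had their summit upstream of the nearest start site and 109 had it downstream, and these are described separately.

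The peaks come from chromatin immunoprecipitation with sequencing (ChIP-seq), in which DNA bound by a protein is pulled down with an antibody and read. Whole Drosophila melanogaster embryos aged 0 to 24 h, of the strain Ravus-GFP, gave 2 biological replicates of 1 group, and the antibody recognised the GFP part of a Ravus-eGFP fusion. The labels call the flies transgenic and also name an insertion aimed at Ravus, and whether untagged Ravus remained was not stated. The sex of the embryos was not recorded, and what drives expression of the fusion was not stated. An embryo collection of this span mixes all tissues and stages, so a peak shows only that the site was bound in some of the cells. The study has no second condition, and no contrast between conditions could be made. Read depth is unknown, since the deposited lists hold peaks and not reads, and a promoter without a peak cannot be told from one below detection.

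A single promoter drives transcription of 1 gene in 1 direction, whereas a divergent promoter region serves a pair of genes read away from each other. In flies the stretch just upstream of an active start site is usually low in nucleosomes, and many sequence-specific regulators bind there. Large fly genes often have several alternative start sites, so that the upstream region of a later start site lies inside the gene's own intron.

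Sequences from strong members show the base composition to which the results below return. Each covers the summit and 50 bp to either side, read from the reference genome (dm6) in the direction of the gene, with runs of at least 8 A or T bases in capitals. The upstream set takes in start sites that face open sequence between genes and start sites inside introns. CG14100 lay at chr3L:19590563-19590663, ph-p at chrX:2137302-2137402, CG18549 at chr3R:12449111-12449211, Rtnl1 at chr2L:4997607-4997707 and lncRNA:CR31044 at chr3R:29214395-29214495. CG18549 and lncRNA:CR31044 were read from the plus strand, and the others from the minus strand. The lncRNA:CR31044 window is shown as a contrast, with a GC content of 40.6% where the other 4 range from 22.8 to 32.7%.
CG14100: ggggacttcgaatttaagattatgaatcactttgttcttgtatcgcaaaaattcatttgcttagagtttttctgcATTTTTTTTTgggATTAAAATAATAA
ph-p: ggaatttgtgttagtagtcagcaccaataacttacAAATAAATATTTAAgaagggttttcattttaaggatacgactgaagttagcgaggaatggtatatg
CG18549: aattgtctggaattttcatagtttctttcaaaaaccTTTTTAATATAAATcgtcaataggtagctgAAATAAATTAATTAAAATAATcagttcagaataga
Rtnl1: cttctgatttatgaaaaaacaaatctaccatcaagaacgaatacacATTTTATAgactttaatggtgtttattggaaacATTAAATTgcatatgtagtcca
lncRNA:CR31044: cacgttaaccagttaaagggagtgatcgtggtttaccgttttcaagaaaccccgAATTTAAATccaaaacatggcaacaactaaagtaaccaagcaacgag

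Strong downstream members whose whole window lay in an intron are shown beside them. CG31612 lay at chr2L:21794899-21794999, Cftr at chr3R:24543205-24543305 and scramb2 at chr3L:3046389-3046489, all on the minus strand. Their summits were 498, 170 and 373 bp inside the gene. Their GC contents were 26.7, 25.7 and 31.7%.
CG31612: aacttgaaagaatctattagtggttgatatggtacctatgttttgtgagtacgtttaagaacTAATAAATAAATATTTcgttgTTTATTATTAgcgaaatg
Cftr: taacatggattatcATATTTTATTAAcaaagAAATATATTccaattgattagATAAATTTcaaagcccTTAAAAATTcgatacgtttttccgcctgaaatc
scramb2: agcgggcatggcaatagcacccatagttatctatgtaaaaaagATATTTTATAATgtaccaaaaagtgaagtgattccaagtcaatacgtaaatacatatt

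Upstream summits made up 79.0% of the members (95% interval 75.2 to 82.4%). Over all 1472 peaks the share was 64.6%, which counts the 248 divergent peaks, all upstream by the rule. It was 53.8% at peaks 501 to 1000 bp from a start site and 37.6% at peaks farther away. The intervals given here are exact Clopper-Pearson intervals that cover counting error over peaks only. The upstream summits had a median position of -195 bp, with quartiles of -287.5 and -130.5 bp, where negative values lie upstream. Summits called in each replicate alone gave medians of -192.5 and -194 bp for the same members. The fullest bins of 50 bp ran from -200 to -150 bp, with 74 summits, and from -150 to -100 bp, with 71. Few summits sat at the start site itself: the 50 bp before it held 14 and the 50 bp after it held 19. Divergent promoter peaks lay closer, at a median of -112 bp, but their start sites were a median of 302.5 bp apart, so their position is bounded by the pair.

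**Figure D1:**
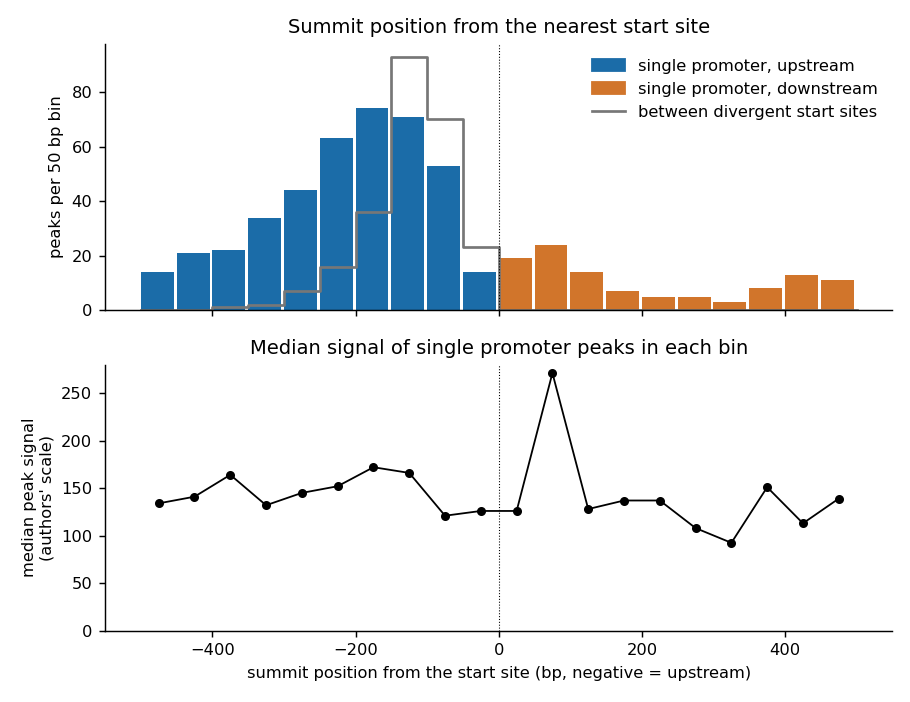
Upper panel: number of peaks per 50 bp bin against summit position from the nearest start site (bp, negative upstream), with bars for the 410 upstream and 109 downstream single promoter peaks and a line for the 248 divergent ones. Lower panel: median peak signal (authors' scale) of the single promoter peaks in the same bins; the bin from 50 to 100 bp downstream stands at 271.

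Peak signal, which the authors' peak caller assigned and whose scale is unknown, was slightly higher at members than at most other peaks. The upstream members had a median signal of 146.9, with quartiles of 110.4 and 222.6. The downstream members had a median of 140.7, with quartiles of 101.6 and 216.2. The upstream to downstream ratio of medians was 1.04, and it was 1.04 in replicate 1 and in replicate 2, while the quartiles overlapped almost fully. Its direction was not stable: it was 0.980 in the thresholded list of replicate 1 alone, 1.14 in that of replicate 2 alone, and 0.952 among peaks of the higher-signal part of the list. Peaks over 1000 bp from any start site, called distal here, had a median of 119.6 (94.75 to 164.3), and the ratio of all members to these was 1.22, with 1.26 and 1.18 in the replicates. Against divergent promoter peaks, at 133.0 (102.4 to 202.5), the ratio was 1.10. That last difference did not repeat in both libraries: over the same peaks the ratio was 1.01 in replicate 1 and 1.11 in replicate 2, and without replicate 2 it was 0.974.

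Members were a growing part of the list as signal rose. With all 1472 peaks ordered by signal and divided into 4 equal parts, members formed 27.7% of the lowest part, then 32.1, 36.1 and 45.1% of the parts above it. Divergent peaks showed no such climb, at 16.0, 17.7, 14.9 and 18.8%. Among the 100 strongest peaks, 52 were members, 39 upstream and 13 downstream. Signal within the members had little relation to distance from the start site (Pearson's r = -0.07 and Spearman's rho = -0.03 over 519 peaks). This is a description across peaks of shared libraries, as are all correlations given here.

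**Figure D2:**
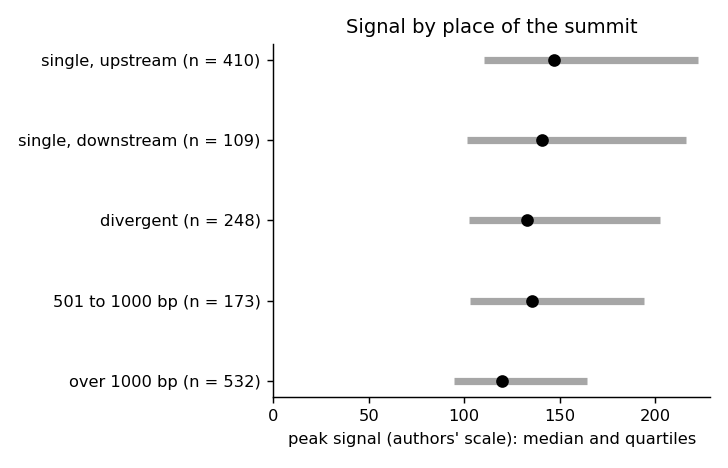
Peak signal (authors' scale) by place of the summit, as medians (points) and quartiles (bars) over the peaks of the conservative list. Single promoter peaks, with medians of 146.9 and 140.7, stand above distal peaks at 119.6, and all bars overlap.

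Both replicates held most members. Replicate 1 had an overlapping thresholded peak at 454 members, or 87.5%, against 83.3% of all 1472 peaks. Replicate 2 had one at 495, or 95.4%, against 93.2% of all. Both had one at 438, or 84.4% (81.0 to 87.4%), against 79.4% of all. The share was 85.6% for upstream members (81.8 to 88.9%), 79.8% for downstream members (71.1 to 86.9%) and 78.6% for divergent peaks (73.0 to 83.6%). The 81 members missing from at least 1 thresholded list had a median signal of 93.1, and none exceeded 169, whereas the 438 in both had a median of 160. Members missing from a list were therefore mostly weak. In the ranked lists, which also hold weak peaks, 516 members had a match in replicate 1 and 518 in replicate 2.

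Signal of members was alike between the libraries. The log2 signals correlated with r = 0.90 and rho = 0.83 over the 515 members matched in both ranked lists. The values were 0.89 and 0.84 for 410 upstream members and 0.91 and 0.83 for 105 downstream members. These lists had been selected for agreement between the libraries, so a high value was built in to a degree that was not measured. The summits of a member lay a median of 17 bp apart between replicates. The side of the start site was therefore stable: 510 of 516 members stayed on the same side by the summit of replicate 1, and 511 of 518 by that of replicate 2.

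**Figure D3:**
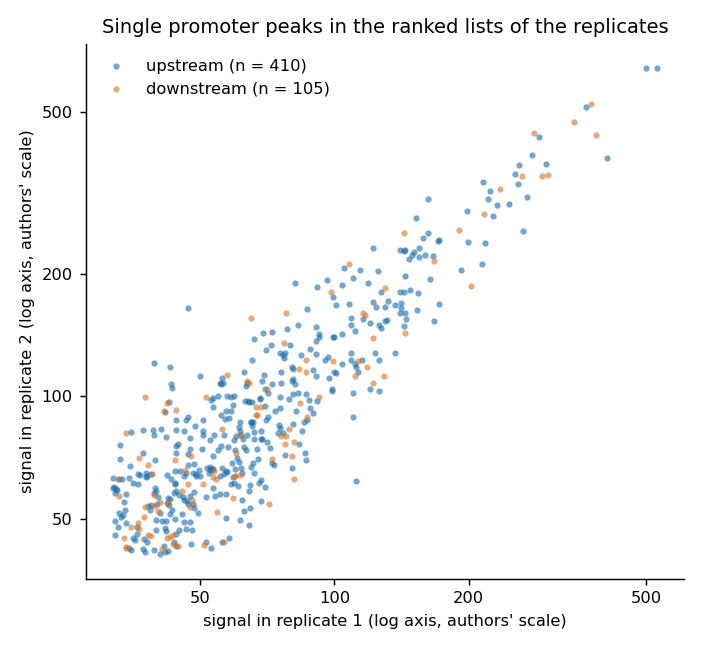
Signal of each single promoter peak in the ranked list of replicate 1 (horizontal) and replicate 2 (vertical), both log axes on the authors' scale, for 410 upstream and 105 downstream members. The points follow 1 band, the median log2 difference of replicate 2 minus replicate 1 is 0.40, and the upstream and downstream points overlap throughout.

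The strongest upstream members stood before genes of varied function. The peak at CG14100 on 3L spanned 19590476 to 19590768, with its summit in intergenic sequence 89 bp before the start site, and it had a signal of 1170. Replicate 1 gave it 530 and replicate 2 gave it 641. The peak at mRpL41, which encodes a protein of the large subunit of the mitochondrial ribosome, lay 146 bp upstream on 2R and had a signal of 1133, with 501 and 641 in the replicates. These 2 were the strongest members in the conservative list. At CG18549 on 3R the summit was 135 bp upstream, and the signal was 725, with 288 and 434 in the replicates. All 3 lay between genes, with a gene in tandem behind.

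Other strong upstream members lay inside the gene they preceded, ahead of a later start site. The ph-p peak, at a gene of the Polycomb repressive complex PRC1, sat in an intron 497 bp before a ph-p start site on X and had a signal of 873, with 367 and 516 in the replicates. A second member lay 496 bp downstream of the gene's first start site, in a 5' UTR, with a signal of 440 (190 and 256). ph-p has a near-identical neighbour, ph-d, so the placement of reads between the copies is uncertain. The plexus gene px, named for its wing vein phenotype, had a peak in an intron at -195 bp with a signal of 670 (277 and 392). Fkbp14, which encodes a prolyl isomerase of the endoplasmic reticulum, had one in an intron at -120 bp with a signal of 664 (299 and 372). In each of these genes both replicates held the peak in their thresholded lists.

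Others of the 12 strongest upstream members lay nearest to lncRNA:CR44619, Tina-1, Sox14, CG1888 and CG5098, with signals from 587 to 781. Sox14 encodes an ecdysone-induced transcription factor of the SOX family. Its summit, at -247 bp with a signal of 591 (270 and 309), lay between start sites that face away from each other but are 1546 bp apart, beyond the limit for a divergent pair. The lncRNA:CR44619 peak, at -456 bp, lay inside another gene and was the only 1 of the 12 with a higher value in replicate 1 than in replicate 2 (409 and 385).

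The upstream members fell into several kinds of surroundings. Between genes lay 199 of 410, or 48.5% (43.6 to 53.5%), and inside the bound promoter's own gene only lay 157, or 38.3% (33.6 to 43.2%). A further 41 lay inside another gene only and 13 inside both. Of the 199 between genes, the gene behind ran in tandem at 148 and faced away at 51. The nearest boundary of the gene behind was a median of 1051 bp from the summit. Across these surroundings the peaks differed little: the median signal was 148 inside the own gene, 146 between genes and 172 inside another gene, with overlapping quartiles, and the mean GC was 31.1, 30.0 and 30.8%.

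A single promoter by the 1000 bp rule could still lie between start sites that face away over a longer span. This was so for 96 of the 410 upstream members, and the median span was 3346 bp. Peaks on either side of this limit can be close neighbours in span. Cbs, with facing start sites 1114 bp apart, was kept with a signal of 92.8, and Pax, at 977 bp, was counted as divergent with a signal of 145. At the 500 bp limit, lncRNA:CR43973 at 499 bp and CG17896 at -499 bp were inside with signals of 105 and 411. ham at -501 bp and CG43658 at -504 bp were outside with 148 and 106.

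Of the 495 distinct nearest genes, 20 were nearest to more than 1 member, and 4 of these had 3 members each. In all 4 every member lay upstream of a different start site. Rtnl1, a reticulon that shapes the endoplasmic reticulum, had intronic peaks at -276, -240 and -226 bp from 3 different start sites, with signals of 548, 281 and 129. Ptpmeg2, a protein tyrosine phosphatase gene, had peaks at -186, -174 and -208 bp with signals of 300, 237 and 206. The cAMP phosphodiesterase gene dnc, known for its role in learning, had peaks at -290, -335 and -335 bp with signals of 342, 220 and 116. Moe encodes Moesin, which links actin to the plasma membrane, and had weaker peaks at -458, -223 and -288 bp with signals of 160, 107 and 94.0. The genes with 3 members were chosen after the values were seen.

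Upstream members preceded long genes. The genes at their protein-coding start sites had a median length of 7379 bp, with quartiles of 3090 and 18448.5 bp. Over all 19630 protein-coding start sites the median gene length was 2897 bp (1418 to 8152.75), and at divergent peaks it was 2446.5 bp. Long nearest genes were not particular to upstream members. With genes of any type counted, the median was 6901 bp at upstream members. It was 8800 bp at peaks 501 to 1000 bp from a start site and 11412 bp at distal peaks. Genes with a single start site made up 34.5% of the sites at upstream members, 52.3% of all sites and 70.2% of those at divergent peaks. A gene with more start sites offers more windows in which a peak can be a member, which is why start sites and not genes were counted. Only 56.1% of the bound upstream sites were the first of their gene, against 71.2% of all protein-coding sites and 93.4% at divergent peaks. With genes of any type counted, the share was 58.5% at upstream members. It was 56.6% at peaks 501 to 1000 bp from a start site and 64.1% at distal peaks. A start site inside its own gene seldom has a neighbour facing away, so part of the contrast with divergent peaks follows from the rule. These comparisons of gene structure were chosen after the values had been seen.

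Downstream members were a different population in place. Their median position was 141 bp inside the gene, with quartiles of 66 and 376 bp. In 5' UTRs lay 53 of 109, or 48.6% (38.9 to 58.4%), with 39 in introns and 17 in other exons, and none in coding sequence. Position was uneven: 43 lay within 100 bp of the start site and 24 between 401 and 500 bp, while only 10 lay over 200 and up to 300 bp from it. The 24 summits between 50 and 100 bp had a median signal of 271, the highest of any 50 bp bin, against 126 in the bin before it. This bin was picked after the values were seen.

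That group held most of the strong downstream members. PNPase, the mitochondrial polynucleotide phosphorylase gene, had a peak in a 5' UTR on 3R, spanning 31404529 to 31404787 with its summit at 79 bp, and a signal of 898, with 377 and 524 in the replicates. Chro encodes Chromator, a chromosomal protein of interbands on polytene chromosomes. Its summit lay at 78 bp in a 5' UTR on 3L, with a signal of 829, from 386 and 439. The antisense RNA asRNA:CR45928 had a peak at 66 bp with a signal of 819, and this summit also lay inside an overlapping gene. mRpL23, of the large mitochondrial ribosomal subunit, had one at 83 bp in an intron with a signal of 653 (302 and 351). GstE13, a glutathione S-transferase gene, had one at 69 bp with 637, CG8320 at 87 bp with 609, and Elp5, of the Elongator complex that modifies tRNA, at 66 bp with 558. Replicate 2 gave the higher value at all 7 of these genes, as it did over the list in general. The median log2 difference of replicate 2 minus replicate 1 was 0.37 over downstream members and 0.39 over all peaks.

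Further members of the 10 strongest downstream were CG9147 at 14 bp with a signal of 718, tank at 140 bp with 498, and ph-p. The histone H3 lysine 27 methyltransferase gene E(z) also belonged to the 50 to 100 bp group, at 65 bp with a signal of 264, from 122 and 139. The same group reached down to Eip75B at 73 bp with 74.5, so its signals ran from 74.5 to 898.

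Many summits just inside a gene were also just ahead of another start site of that gene. Of the 43 downstream summits within 100 bp, 29 had a further start site of the same gene within the next 500 bp, or 67.4% (51.5 to 80.9%). That further site lay a median of 119 bp ahead of the summit, with quartiles of 103 and 153 bp. For comparison, a point 60 bp inside the gene, the median position of these 43, had a further start site within 500 bp at 11.3% of all 19630 protein-coding start sites. Among the 36 of the 43 at protein-coding genes the share was 80.6% (64.0 to 91.8%). For the 66 downstream summits beyond 100 bp it was 11 of 66, or 16.7% (8.62 to 27.9%). The mean GC at the 29 summits was 29.1% (SD 8.88), against 34.6% (SD 6.92) at the 14 without such a site. Signal in the 50 to 100 bp group did not follow this split, with medians of 271 at the 16 with a further site and 268 at the 8 without. These comparisons were also chosen after the values were seen.

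Noncoding genes were the nearest genes more often at downstream summits. They were nearest to 24 of 109 downstream members, or 22.0% (14.6 to 31.0%), and to 26 of 410 upstream members, or 6.34% (4.18 to 9.15%). Of the 24, 7 also had a protein-coding start site within 500 bp. Over all peaks the noncoding share was 10.7%, and at distal peaks it was 14.8%. In all, 467 members lay nearest to a protein-coding gene, or 90.0% (87.1 to 92.4%), close to the 88.5% of all peaks. Among the upstream noncoding members was lncRNA:CR31044, whose RefSeq entry names it the primary transcript of mir-279 and mir-996. Its window is printed above, at -117 bp, and its signal was 523, with 231 and 295 in the replicates.

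The X chromosome held 113 members, or 21.8% (18.3 to 25.6%), close to its 20.8% of all peaks. It held only 22 of the 248 divergent peaks, or 8.87% (5.64 to 13.1%). Put the other way, 22 of 135 promoter peaks on X were divergent, or 16.3% (10.5 to 23.6%), against 226 of 632 on the autosomes, or 35.8% (32.0 to 39.6%). As a measure of annotated divergent promoters, the point 195 bp before the first start site lay in a divergent pair, by the same limit, at 26.7% of protein-coding genes on X and 26.6% on the autosomes. Upstream members on X had a median signal of 158 and those on the autosomes 146, with quartiles of 123 and 211 against 107 and 227. The 28 downstream members on X had a median of 115, against 147 for the 81 on the autosomes, and their quartiles overlapped. Chromosome 4 and Y held 0 members. The division by chromosome was made after the values had been seen.

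Member summits lay in dips of GC content. At upstream members the window of 50 bp to either side of the summit had a mean GC of 30.6% (SD 9.01), and flanking windows of that length, 300 bp away on each side, had 43.6%. The difference was -13.1 percentage points (SD 11.6), and the summit was lower than its flanks in 360 of 410 members, or 87.8% (84.2 to 90.8%). Downstream members had 33.3% (SD 9.11) against 45.0%, a difference of -11.7 points (SD 12.2), with 88 of 109 lower than their flanks. Divergent peaks had 28.1% (SD 8.66) and a larger difference of -18.1 points (SD 11.6). At distal peaks it was -13.3 points, so the dip was also present away from promoters.

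Promoters in general are also low in GC upstream of the start site, so promoters without a peak were measured at the members' median position. Over 9746 protein-coding genes with no promoter peak and no divergent pair, the window at -195 bp had a mean GC of 38.0% (SD 10.9), against 30.6% at the upstream members. The members' windows follow each summit whereas this window is fixed, so profiles at equal distance from the start site give the closer comparison. In these profiles, upstream members reached their lowest GC of 34.0% at -190 bp and rose to 51.7% at 30 bp inside the gene. The promoters without a peak had 37.8% at -190 bp, and their lowest value was 37.6%, at -150 bp. The 2 sets still differ in kind, since promoters without a peak were taken at the first start site of each protein-coding gene. At upstream members only 58.5% of the nearest sites were the first of their gene, and 38.3% of summits lay inside their own gene only. How this affects the profiles was not tested. Upstream summits within 100 bp of the start site were less extreme, at 35.8% (SD 11.4) over 67 peaks, with a median signal of 122. Those from 200 to 100 bp upstream had 30.0% (SD 8.93) over 145 peaks, with a median signal of 167.

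**Figure D4:**
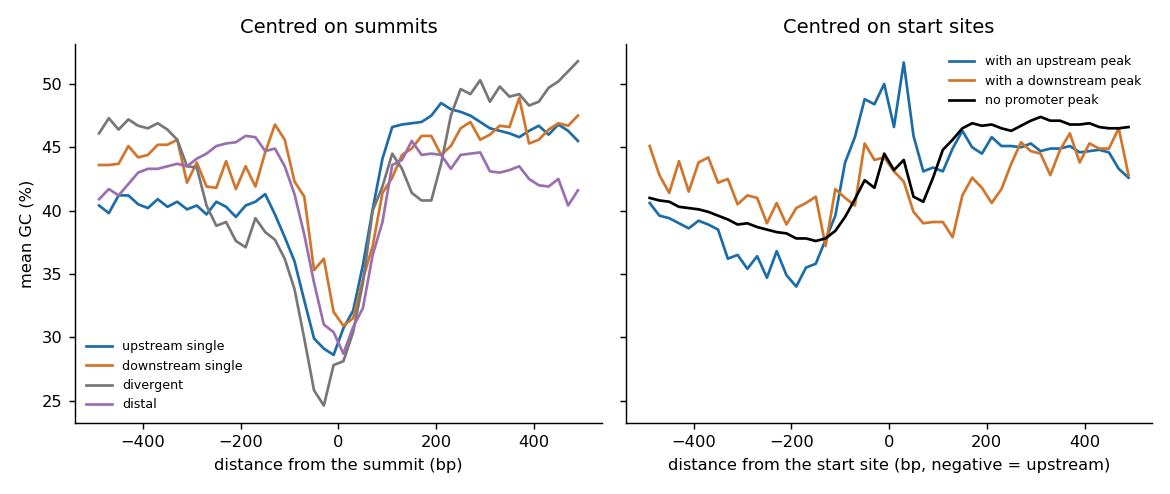
Mean GC (%) in 20 bp bins against distance (bp), centred on peak summits (left) and on start sites in the direction of the gene (right). All 4 peak classes dip at the summit, divergent peaks the lowest at 24.6%, and start sites with an upstream peak dip to 34.0% at -190 bp where promoters without a peak reach 37.6%.

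Low GC was not universal among members: 78 of 519, or 15.0% (12.1 to 18.4%), had a GC above 40% at the summit. Summits of upstream members that fell in 5' UTRs had 37.1% (SD 10.1) over 32 peaks. CG1888 and CG5098, both among the 12 strongest upstream, had 41.6% at the summit, where mRpL41 and Fkbp14 had 21.8%. GC and log2 signal were weakly related over the members (r = -0.15, rho = -0.14, n = 519). The longest unbroken run of A and T in the window was a median of 11 bp at upstream members, 10 bp at downstream members and 9 bp at promoters without a peak. Runs of at least 20 bp occurred at 11.0% of upstream members (8.12 to 14.4%) and at 3.94% of promoters without a peak, but also at 12.5% of divergent peaks and 9.24% of all peaks.

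A search for 15 short motifs on both strands of the windows found mostly AT-rich letters at higher shares than in the surroundings. TATAAA, the core of the TATA box, was present in 27.3% of upstream windows (23.1 to 31.9%) and in 26.6% of downstream windows (18.6 to 35.9%). It was present in 10.4% of the flanks of upstream members and in 17.3% of windows at promoters without a peak. Distal peaks had it in 25.8% of windows, divergent peaks in 34.7% and all peaks in 27.0%, so its share at members was that of the whole list. Of its 149 matches in upstream windows, 73 lay on the gene's strand and 76 on the opposite one. Their median position was -200 bp from the start site. Only 2 of the 149 lay between -40 and -20 bp, the span counted as the core promoter. The windows follow the summits, and only 67 of the 410 upstream summits lay within 100 bp of the start site. Few windows could therefore reach that span, and this count cannot tell whether these promoters hold a TATA box. The AT repeat ATATATAT was in 4.88% of upstream windows and 0.488% of their flanks. Downstream windows had it in 2.75% and their flanks in 1.38%. It was in 4.01% of all peaks, 3.95% of distal peaks, 2.82% of divergent peaks and 2.43% of promoters without a peak. Its share at upstream members was thus near that of the whole list. TGCATA, part of the Su(Hw) recognition sequence, was in 9.51% of upstream and 11.0% of downstream windows, against 4.27% of the upstream flanks, 6.78% of promoters without a peak and 10.3% of all peaks.

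Some of the other motifs were scarcer at the summits than beside them. GAGAG, the letters read by GAGA factor, was in 9.02% of upstream windows (6.43 to 12.2%), in 20.9% of their flanks and in 1165 of the 9746 promoters without a peak, and over all peaks it was in 8.15%. In downstream windows it was in 3.67% (1.01 to 9.13%). CACACACA was in 0 of 410 upstream windows, which allows up to 0.896%, and in 4.39% of their flanks. It was in 1.45% of promoters without a peak. Divergent peaks had it in 0.403%, distal peaks in 0.376% and all peaks in 0.272%, so it was rare over the whole list. The palindrome TATCGATA, bound by DREF at many housekeeping promoters, was in 0.732% of upstream windows, 0.488% of their flanks and 0.780% of promoters without a peak. AGGNGGC, from the CTCF recognition sequence, was in 2.44% of upstream windows and 2.32% of their flanks, and CANCNCTA was in 2.68% and 2.44%. CAGGTA, read by Zelda in the early embryo, was in 4 upstream windows, or 0.976% (0.266 to 2.48%). It was in 2.68% of their flanks and in 2.46% of promoters without a peak, which the interval takes in. Downstream windows had it in 2.75% (0.571 to 7.83%), divergent ones in 3.23%, distal ones in 1.32% and all peaks in 1.83%. These counts are too small to call it scarce at upstream members. The summit windows hold fewer G and C bases than either background, and how much of these differences follows from base composition was not tested. A match is a string of letters and not evidence of binding.

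Single promoter peaks marked 444 of 13968 protein-coding genes, or 3.18%, and the 20 gene lists were read against that share. Muscle and heart genes had 3 of 23, all upstream and in the lower or middle range of signal. They were tin, the homeobox gene of heart precursors, at -212 bp with a signal of 204, sls, which encodes titin-like proteins of the sarcomere, at -276 bp with 146, and rols, needed for myoblast fusion, at -408 bp with 82.4. In the replicates tin had 77.4 and 128. Among neuronal genes, 1 of 22 was a member, elav, whose RNA-binding protein marks neurons, at -256 bp with 309, from 137 and 168. The elav summit lay in an intron of another gene and outside elav itself, and a further gene was equally near. Segmentation and Hox genes had 1 of 32, bcd, the anterior morphogen, at -189 bp with 113, and tracheal and epidermal genes had 1 of 17, trh, at -421 bp with 94.6.

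On the lists of chromatin regulators, ph-p and Chro were among the strongest members. E(z), with a signal of 264, lay above the members' upper quartile of 222.0, and the others were nearer the median of 146.2. Polycomb group genes had 2 of 19, ph-p and E(z), insulator and architectural genes had 2 of 23, Chro and Trl, and the trithorax list had 1 of 20, which was again Trl. Trl encodes GAGA factor, and its summit lay at 122 bp in a 5' UTR with a signal of 142, from 81.1 and 62.5. Of the MADF-BESS list, genes for proteins with a Myb-like DNA-binding domain, 2 of 10 were members, brwl at -154 bp with 179 and hng3 at 418 bp in an intron with 156. Ravus, the tagged gene, was on that list and was not a member. With so few genes on each list, these counts are too small to set a list apart from the 3.18% of all genes.

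Housekeeping lists had from 0 to 5.71% of their genes among the members. Cytoplasmic ribosomal protein genes had 5 of 93, and 3 of the 5 summits lay within 40 bp of the start site. RpL7 had a summit at 22 bp with a signal of 216, RpL23A at -93 bp with 146 and RpS21 at -20 bp with 130, and RpL11 and RpS16 had 84.3 and 82.9. Mitochondrial ribosomal protein genes had only 2 of 73, but these were mRpL41 and mRpL23 with signals of 1133 and 653. Translation factors had 2 of 60, eEF1gamma at -42 bp with 153 and eIF5B at -107 bp with 129. Respiratory chain genes had 1 of 87, ATPsynE at 27 bp with 92.7. Cell cycle and replication genes had 1 of 45, Dp, the partner of E2F, at -210 bp with 200. Chaperone genes had 2 of 35: Hsp27 at -156 bp with 372, from 151 and 226, and Hsp83, the fly Hsp90 gene, at -55 bp with 94.1.

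No gene was a member in 6 lists, aminoacyl-tRNA synthetases (0 of 33), Mediator, Taf and general transcription factors (0 of 56), RNA polymerase subunits (0 of 30), proteasome subunits (0 of 48), splicing snRNP proteins (0 of 32) and nucleoporins (0 of 23). Genes of these lists nevertheless had start sites within 500 bp of divergent promoter peaks, as did 3.34% of all protein-coding genes. The Mediator and Taf list had 6 such genes, splicing proteins 4, RNA polymerase subunits 4, aminoacyl-tRNA synthetases and nucleoporins 3 each, and proteasome subunits 2. Cytoplasmic ribosomal protein genes had 10 and mitochondrial ones 6. Respiratory chain and chaperone lists had 4 each, translation factors 3, and insulator genes 2. Trithorax, MADF-BESS and cell cycle lists had 1 each. Muscle and heart, neuronal, segmentation, tracheal and Polycomb lists, of 17 to 32 genes, had 0 each. With so few genes on a list, a count of 0 cannot be set apart from 3.34%, nor 0 members from 3.18%. How the lists fell between the kinds of promoter was noticed in the values and was not tested.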

How the data were processed

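The authors deposited 8 peak lists on dm6 from ChIP-seq of Ravus-eGFP in 2 biological replicates of 0 to 24 h embryos, with chromatin fragments of 200 to 800 bp per the labels. Per the file list deposited with each sample, peaks were derived from alignments with a control and ordered by the irreproducible discovery rate (IDR), which measures how well peak ranks repeat. No source used here names the aligner or peak caller, nor gives read depth. Column values used were the deposited signal of each peak, positive and on an unnamed scale, and the summit offset in bp. Of the lists 6 were used here: the conservative list as the main set, the further thresholded series list, and a thresholded and a ranked list of each replicate.

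Summits were placed against the 5' ends of transcripts in Ensembl 115 (BDGP6.54), leaving out transposable elements, with Python 3.11.15, pandas 2.3.3 and scipy 1.17.1. Of 1474 peaks, 1472 lay on the arms. At 13 members the nearest start site was shared by several genes or tied in distance. There a single gene was named, with protein-coding genes taken first. Of 17795 genes matched by symbol to RefSeq, whose genome sequence (Release 6) was used for windows of 50 bp to either side of a summit, 17792 had the same start and end. Replicate peaks were matched where they shared 1 bp or more, taking the strongest match. Coordinates are 1-based. Shares carry exact Clopper-Pearson 95% intervals. The classification was checked on simulated data. Peaks are not replicates of a condition, so no test across conditions or peaks was made.

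The members, gene lists and motifs were chosen with earlier results of these data known. Genes were named by a rule: the 12 strongest upstream and 10 strongest downstream members, up to 3 members of each of 20 gene lists, and the 2 peaks on either side of the 500 bp limit. The sequence and values of 1 of the strongest upstream members are not reported here. Others are said to have been chosen after their values were seen. Names on the lists not found in the annotation were madm and calypso. The sequences shown are those of strong members whose windows are not exonic.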

Additional observations from a re-analysis of the deposited data

How the results depend on the processing

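Of 104 values recomputed under other settings, 83 stayed within a set limit and 21 moved beyond it. The limit was the counting interval for shares, a fixed fold change for the number of members, and the spread between replicates otherwise. The fold limit is wide. It took in 692 members with a window of 1000 bp, 385 with gene 5' ends only and 649 without replicate 1, where the replicate SD was 99.7. The 519 members became 344 with a window of 250 bp and 299 among peaks of the higher-signal part of the list, both by construction. The upstream share was 72.7% with a window of 1000 bp and 69.6% when only the 5' end of each gene counted as a start site. The median position was -131 bp with a window of 250 bp and -134 bp with gene 5' ends only. The signal ratio of single to divergent peaks ranged from 0.974 to 1.13 when either replicate was left out. That of upstream to downstream summits turned below 1 without replicate 2 (0.980) and in the higher-signal part (0.952). The GC difference at upstream summits was -12.5 points in the further list, -12.1 with 250 bp, -14.0 with gene 5' ends, -13.9 in the higher-signal part, -9.63 with windows of 100 bp to either side, and -12.7 to -11.9 without either replicate. At downstream summits the replicate SD was 3.20 points, so that limit was wide too. It took in -8.61 with windows of 100 bp to either side, -8.97 without replicate 1 and -13.5 without replicate 2, against -11.7 as reported. Replicate SDs were computed from the values without replicate 1 and without replicate 2, which they then judged. TATAAA was in 14.9% of windows of 51 bp and 42.2% of windows of 100 bp to either side. The share of members in both replicates was 75.7% in the further list and 97.3% in the higher-signal part, and it has no value without a replicate. The protein-coding share was 100% with protein-coding start sites only, by construction, 86.2% with gene 5' ends, and 92.4 to 92.5% without either replicate. The cause was not tested where the setting does not build it in. No paired analysis was possible because the study has 1 group.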
